A study of Homo sapiens with 12 samples.

Results

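Motile cilia and axoneme genes were followed in Ishikawa cells, an established line from an endometrial adenocarcinoma, across the combinations of an siRNA and a peptide. The genes were chosen by name: the cilia- and flagella-associated proteins (CFAP), radial spoke heads (RSPH), outer dynein arm docking subunits (ODAD), axonemal dynein heavy chains (DNAH) and intermediate chains (DNAI), with the light intermediate chain DNALI1 and the transcription factor FOXJ1. Of 19775 genes with a probe set of their own on the arrays, 72 carry such a name ending in a number. RSPH4A and RSPH6A, whose names end in a letter, were not taken and stand among the other axoneme components below. The 52 whose brightest probe set averaged at least 4.5 on the log2 scale over the 12 arrays were kept, 30 of 44 CFAP, 9 of 13 DNAH, 5 of 6 DNAI and DNALI1, 4 of 4 ODAD, 3 of 4 RSPH, and FOXJ1. The members nearest to that level were CFAP276 at 4.51 and CFAP99 at 4.52 inside it, and CFAP44 at 4.47 and CFAP210 at 4.45 outside it.

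The groups were control siRNA with metastin-10, control siRNA with control peptide, GPR54-specific siRNA with metastin-10, and GPR54-specific siRNA with control peptide, each with 3 arrays that the labels call biological replicates. The siRNA was given for 48 h and the peptide, 10 µM in the case of metastin-10, for the following 24 h, so the control group carries an siRNA and a peptide too. Metastin-10, or kisspeptin-10, is the short active peptide cut from the KISS1 product, and GPR54 is its receptor, encoded by KISS1R. The design addresses the response to metastin-10 and its dependence on GPR54. All samples are cultures of 1 cell line, and p-values measure the spread between those cultures.

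A motile cilium is a beating extension of the cell built on the axoneme, a ring of microtubule doublets around a central pair. Dynein arms on the doublets drive the beat: the heavy chains are the motors, the intermediate and light intermediate chains hold and regulate them, and the docking complex fixes the outer arms to the doublet. Radial spokes connect the doublets with the central pair, and FOXJ1 switches on most genes of the structure, together with RFX transcription factors. In the endometrium, motile cilia belong to the ciliated cells among the surface and gland epithelium.

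The levels of cell type markers are given as a description, since levels of different probe sets are not comparable. The 10 measured epithelial markers averaged between 8.59 (the estrogen receptor gene ESR1) and 13.99 (KRT18). Markers of ciliated epithelial cells were mixed: 10 of 18 reached 4.5, CAPS was at 10.53 and AGR3 at 9.54, while SNTN, which encodes sentan of the ciliary tip, was at 2.51. Of 6 leukocyte markers, CD3E at 5.20 and CD3D at 4.90 also reached 4.5, and 74.8% of all genes did. The level of 4.5 therefore does not show by itself that a gene was expressed, and the values do not show that the cells bore motile cilia.

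The KISS1R probe set gave no lower level in arrays labelled GPR54 siRNA. With control peptide it read 9.46, 9.45 and 9.36 in these arrays, against 9.39, 9.32 and 9.14 with control siRNA, a log2 difference of 0.14 (95% interval -0.07 to 0.35). These groups are therefore called the arrays labelled GPR54 siRNA. The arrays with control siRNA and metastin-10 stood lower, at 8.43, 8.42 and 8.35 (-0.88 against control peptide, adjusted p = 0.00213). With replicate 3 alone for that group, KISS1R was at -0.93 and did not pass (adjusted p = 0.153). Some arrays stood apart over all probe sets. On the first principal component (27.7% of variance), the replicate 3 arrays had scores of 0.24 to 0.51, against -0.37 to 0.20 for the others. The replicate 3 arrays of the 4 groups had a difference of 0.29 to 0.36 between the 3 prime and 5 prime beta-actin controls, a measure of RNA and labelling quality, against 0.66 to 0.90 in the others. On the second principal component (21.4% of variance), the control siRNA, metastin-10 arrays of replicates 1 and 2 had scores of 0.66 and 0.46, against -0.30 to 0.17 for the other 10 arrays, among them replicate 3 of that group. Calls without the replicate 3 arrays of all groups, and calls with replicate 3 alone for control siRNA with metastin-10, are given after each comparison that made calls.

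Under control siRNA, several axoneme genes were lower with metastin-10. DNAI7 and CFAP96 fell most, by 1.88-fold and 1.87-fold, followed by RSPH1, CFAP126, DNALI1 and ODAD4 at 1.61-fold to 1.47-fold. These 6 genes span the dynein intermediate and light intermediate chains, the docking complex, the radial spokes and the CFAP group, while no heavy chain was called. Of the 52 genes, 6 fell and 0 rose at an adjusted p under 0.05, which is 11.5%, against 0.531% lower and 0.0759% higher over all 19775 genes and 0.71% lower over the 14789 genes that reach the same level of 4.5. The median over the 52 was -0.04, against 0.01 over all genes and -0.02 over those at or above 4.5, and the middle of the list ran from -0.21 (25th percentile) to 0.12 (75th percentile). DNAI7 and CFAP96 were known to be among the lowest genes of this comparison when the list was drawn up.

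DNAI7, which encodes an axonemal dynein intermediate chain protein, read 4.72, 4.86 and 5.14 (log2, replicates 1 to 3) with metastin-10, against 5.83, 5.77 and 5.84 with control peptide. Every metastin-10 array was below every control peptide array, and the log2 difference was -0.91 ± 0.12 (SE, adjusted p = 0.00558). DNALI1, the light intermediate chain of inner dynein arms, read 8.29, 8.44 and 8.54 with metastin-10, against 8.90, 9.09 and 9.04 with control peptide. Its groups were also apart, at -0.59 ± 0.10 (adjusted p = 0.0238). A dimmer probe set of DNALI1 was at -0.36 and did not pass (adjusted p = 0.253).

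DNAI4, an inner arm intermediate chain, gave a split reading. Its brightest probe set was lower on all 3 metastin-10 arrays, 5.61, 5.77 and 5.99, against 6.24, 6.29 and 6.09, but missed the threshold (-0.42 ± 0.15, adjusted p = 0.329). A dimmer probe set of DNAI4 was at -0.58 and passed (adjusted p = 0.0446). The outer arm chains DNAI1 and DNAI2 were at 0.16 and 0.22 and did not pass.

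In the docking complex, ODAD4 read 5.10, 5.15 and 5.28 with metastin-10, against 5.68, 5.73 and 5.78 with control peptide. The groups did not overlap (-0.55 ± 0.09, adjusted p = 0.0239). The other docking subunits did not pass: ODAD2 was at 0.33 ± 0.14 (adjusted p = 0.417), with all metastin-10 arrays (5.84 to 6.10) above the control peptide arrays (5.57 to 5.73), ODAD1 was at 0.06 and ODAD3 at -0.05. ODAD4 and ODAD2, both subunits of the same complex, thus lay on opposite sides of 0, with only ODAD4 called.

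Among the radial spoke genes, RSPH1, a subunit of the spoke head, read 6.09, 6.04 and 6.12 with metastin-10, against 6.72, 6.85 and 6.72 with control peptide. The 2 groups were tight and apart (-0.68 ± 0.10, adjusted p = 0.00772). RSPH3, a spoke stalk protein, was at 0.14 and RSPH14 at 0.12, and neither passed.

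The CFAP group held 2 called genes of 30, with a median of -0.07. CFAP96 read 6.35, 6.32 and 6.50 with metastin-10, against 7.33, 7.41 and 7.13 with control peptide (-0.90 ± 0.11, adjusted p = 0.00308). A dimmer CFAP96 probe set fell as well (-0.60, adjusted p = 0.0268). CFAP126, known in mice as Flattop and needed there for the positioning of basal bodies, read 6.25, 6.14 and 6.28 with metastin-10, against 6.89, 6.97 and 6.78 with control peptide (-0.66 ± 0.09, adjusted p = 0.00673). Both CFAP genes had groups that did not overlap.

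CFAP46, a protein of the central pair apparatus, missed the threshold here with groups apart, at 4.83, 5.08 and 5.01 with metastin-10, against 5.48, 5.62 and 5.45 with control peptide (-0.55 ± 0.12, adjusted p = 0.0925). Its 2 dimmer probe sets were at 0.08 each. CFAP45, a protein inside the doublet microtubules, was at -0.29 (adjusted p = 0.247). At the other end CFAP157 was highest at 0.42 ± 0.15 (adjusted p = 0.331), with 6.50, 6.47 and 6.01 with metastin-10 against 6.03, 5.82 and 5.88 with control peptide, and its groups overlapped. CFAP99, at 4.69, 4.67 and 4.49 against 4.47, 4.37 and 4.30, was at 0.23 (adjusted p = 0.586).

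**Figure D1:**
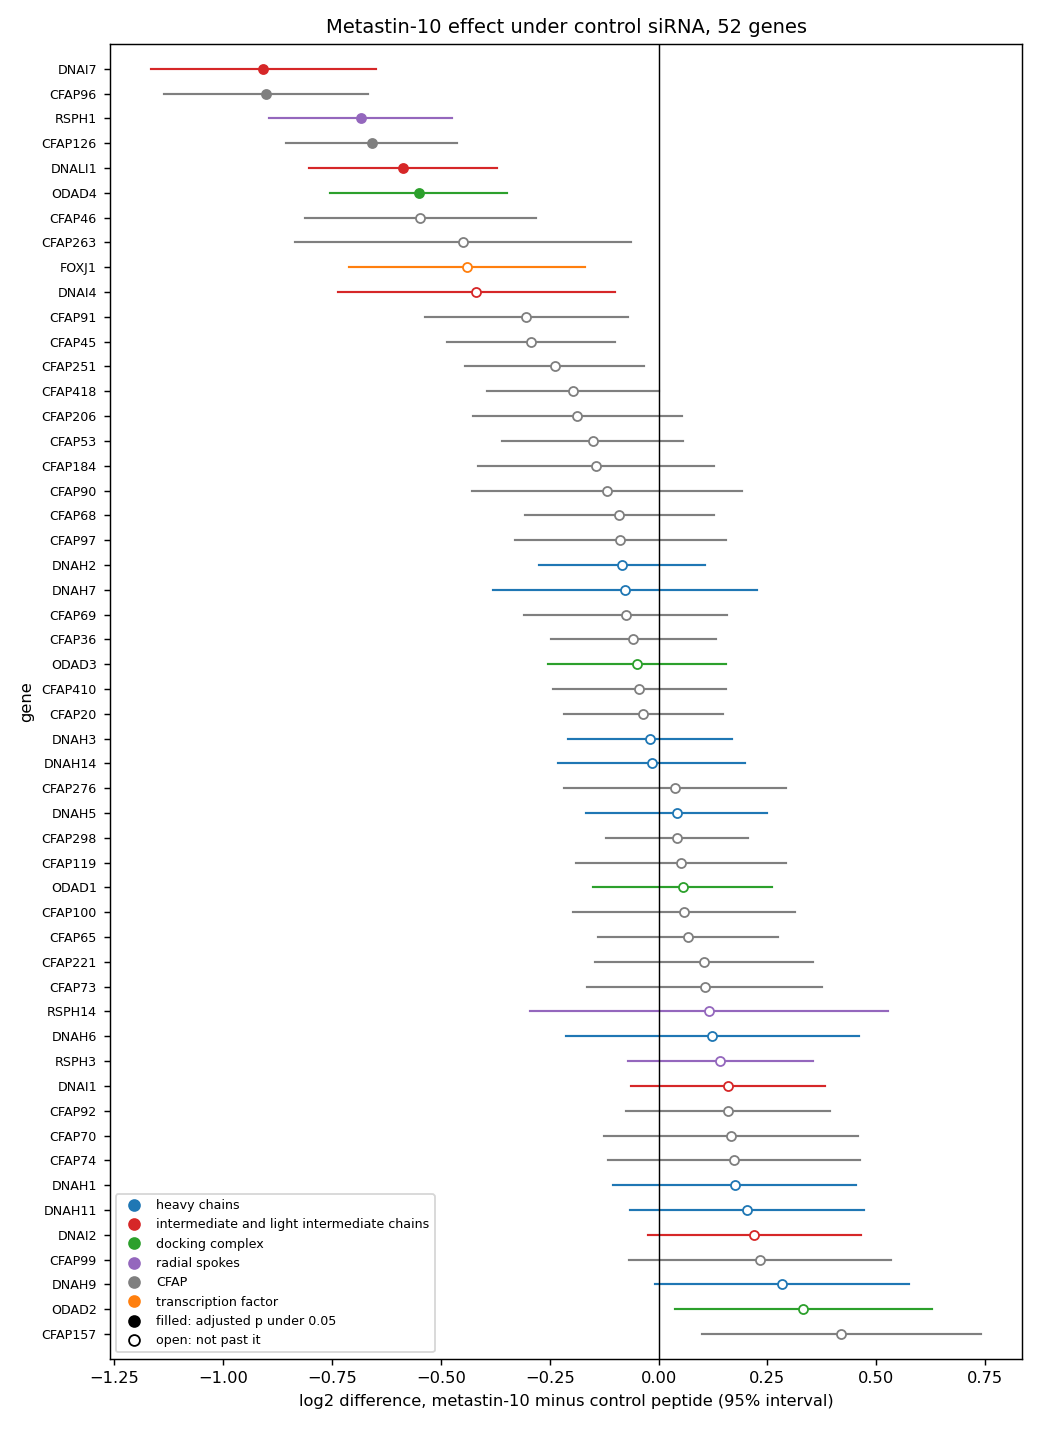
Log2 difference of metastin-10 minus control peptide under control siRNA (x axis) for each of the 52 genes (y axis, the most negative difference at the top), with 95% intervals from the limma fit. Points are coloured by class and filled where the adjusted p is under 0.05. The 6 filled points lie between -0.91 and -0.55, and the 9 heavy chains lie between -0.08 and 0.28.

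FOXJ1 read 7.08, 7.12 and 6.90 with metastin-10, against 7.38, 7.66 and 7.37 with control peptide. All 3 metastin-10 arrays were below the control peptide arrays, but the difference of -0.44 ± 0.13 missed the threshold (adjusted p = 0.209). It passed with the replicate number as a block, at the same size (adjusted p = 0.0442). FOXJ1 has 1 probe set here, as do DNAI7, RSPH1, CFAP126 and ODAD4.

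The 9 heavy chains had a median of 0.04 and ranged from -0.08 for DNAH2 to 0.28 for DNAH9. None was called, 4 lay below 0 and 5 above. DNAH9, an outer arm motor, read 5.50, 5.22 and 5.44 with metastin-10, against 5.10, 4.96 and 5.25 with control peptide (0.28 ± 0.13, adjusted p = 0.483). Its groups overlapped, and its 2 dimmer probe sets were at -0.05 and -0.12. DNAH5, another outer arm motor of airway cilia, was at 0.04. The heavy chains averaged between 5.13 and 6.77 over the arrays.

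Groups that did not overlap were more common than calls. Metastin-10 arrays lay wholly below control peptide arrays for 15 of the 52 genes (28.8%), against 10.9% of all genes and 13.7% of those at or above 4.5. They lay wholly above for 3 of 52 (5.77%), against 8.72% of all genes. Of the 26 members above the median level of 6.03, 4 were called, and of the 26 below it 2 were called. As their groups did not overlap, each of the 6 called genes was necessarily lower in all 3 same-numbered pairs. DNAI7 differed by -1.11, -0.90 and -0.71 for replicates 1, 2 and 3.

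The number called depended on single arrays. Without replicate 2 of control siRNA with control peptide, only CFAP96 and DNAI7 remained of the 6. In that fit 0.207% of all genes were called in either direction, against 0.607% with all 12 arrays. Without any other array the count of members lay between 4 and 7. With replicate 3 alone in the control siRNA, metastin-10 group, a setting chosen after the data were seen, none of the 6 passed and 1 gene of all 19775 did, while their differences were -0.79 for CFAP96, -0.68 for DNAI7, -0.65 for RSPH1, -0.60 for CFAP126, -0.47 for DNALI1 and -0.45 for ODAD4. The lone array is assumed there to vary like the other groups. Without the replicate 3 arrays of all groups, 4 of the 6 passed and DNALI1 (-0.63, adjusted p = 0.0581) and ODAD4 (-0.58, adjusted p = 0.0717) did not.

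**Figure D2:**
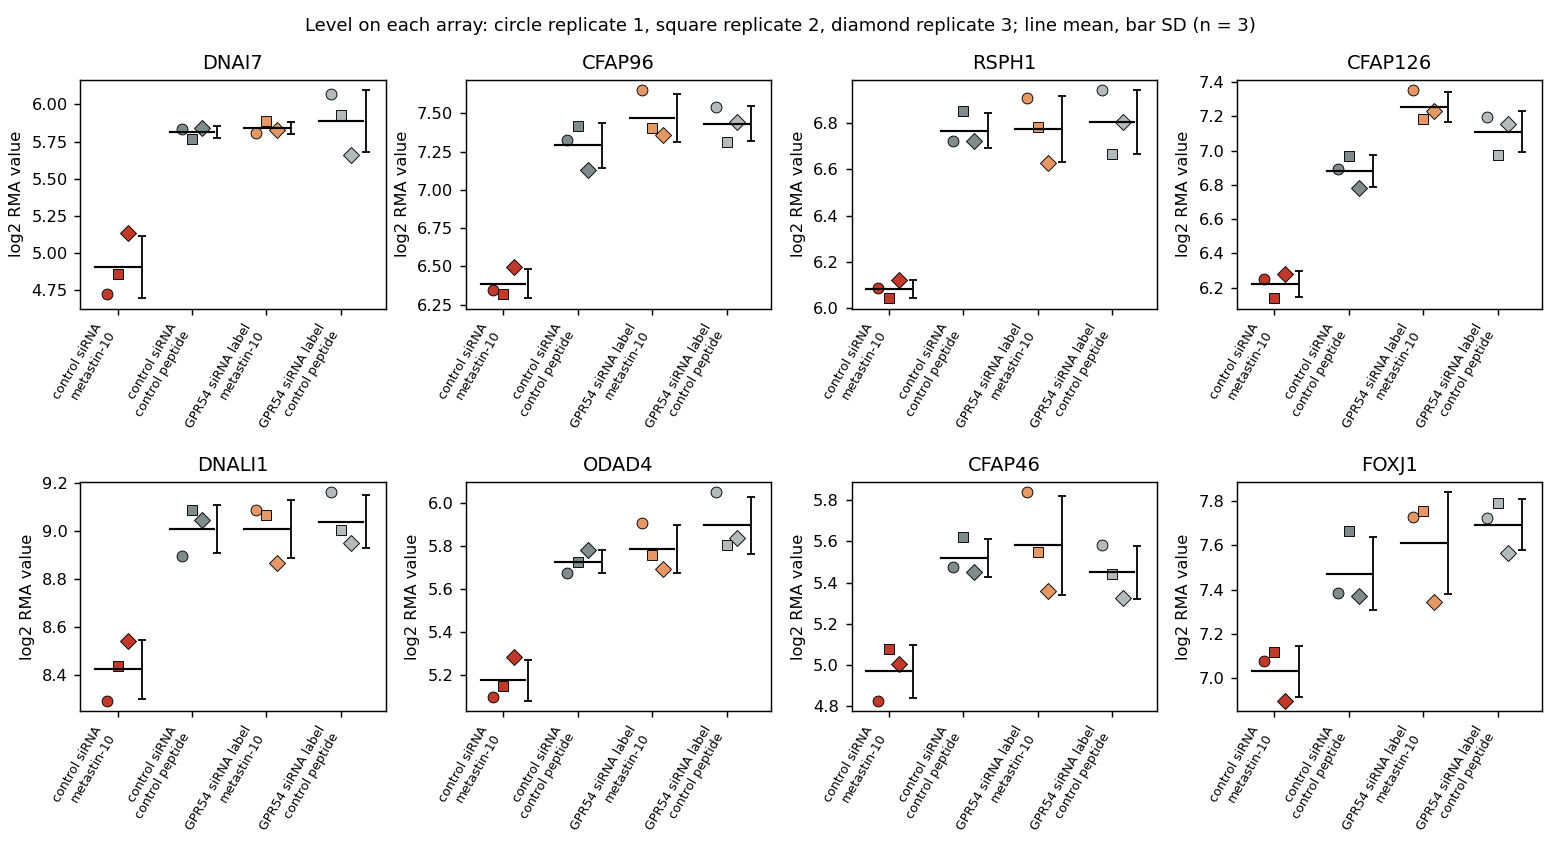
Log2 RMA value (y axis) of the 7 genes called in a comparison, and of FOXJ1, on each of the 12 arrays, by group (x axis). Symbols mark replicates, lines the group mean and bars the SD (n = 3). The control siRNA, metastin-10 arrays are the lowest group in every panel.

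The promoters of called genes are shown because these genes were called lower in the same comparison. Whether they share a regulator was not tested. RefSeq promoters (GRCh38.p14, 250 bases before to 50 after the annotated start) were found for 44 of the 52 genes and for 4 of the 6 called ones, which are printed 5 prime to 3 prime in lower case. Capitals mark GTTNCC, the core of the site bound by RFX factors, and GTAAACA, the core bound by forkhead factors such as FOXJ1, on either strand. Both motifs were chosen after the sequences were seen.
DNAI7, chr12:25195111-25195410, minus strand: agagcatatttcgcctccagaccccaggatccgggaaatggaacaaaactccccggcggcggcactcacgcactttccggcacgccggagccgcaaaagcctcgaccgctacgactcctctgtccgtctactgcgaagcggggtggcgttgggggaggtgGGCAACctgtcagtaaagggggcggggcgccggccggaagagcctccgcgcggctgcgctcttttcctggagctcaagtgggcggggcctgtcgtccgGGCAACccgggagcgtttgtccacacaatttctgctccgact
CFAP96, chr4:185426004-185426303, plus strand: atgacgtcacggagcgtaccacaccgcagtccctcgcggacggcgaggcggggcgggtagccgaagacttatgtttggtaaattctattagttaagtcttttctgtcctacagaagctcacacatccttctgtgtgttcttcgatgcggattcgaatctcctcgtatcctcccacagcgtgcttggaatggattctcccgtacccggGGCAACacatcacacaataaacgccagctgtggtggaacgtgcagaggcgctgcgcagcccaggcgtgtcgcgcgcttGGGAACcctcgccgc
CFAP126, chr1:161367827-161368126, minus strand: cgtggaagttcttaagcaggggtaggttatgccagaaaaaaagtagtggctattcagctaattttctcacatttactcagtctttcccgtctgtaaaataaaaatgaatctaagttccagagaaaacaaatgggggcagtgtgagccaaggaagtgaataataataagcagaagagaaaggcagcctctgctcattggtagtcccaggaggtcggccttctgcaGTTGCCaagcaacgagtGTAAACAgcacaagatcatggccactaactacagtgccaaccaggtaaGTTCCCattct
DNALI1, chr1:37556690-37556989, plus strand: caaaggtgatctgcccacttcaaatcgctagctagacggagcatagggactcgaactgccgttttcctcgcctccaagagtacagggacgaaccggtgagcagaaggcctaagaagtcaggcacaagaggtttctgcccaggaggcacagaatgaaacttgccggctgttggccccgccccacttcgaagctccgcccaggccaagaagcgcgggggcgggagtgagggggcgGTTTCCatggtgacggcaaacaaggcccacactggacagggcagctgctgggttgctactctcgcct
GTTNCC, which reads GGNAAC on the other strand, was present in all 4, and in CFAP126 the first GTTNCC match is at position -26 from the start and GTAAACA at position -9. A GTTNCC match was present in 35 of the 44 members with a promoter (79.5%), against 45.2% of all 27305 promoters and 46.7% of the 11826 promoters of genes at or above 4.5. Among members not called in any comparison it was 30 of 39 (76.9%). GTAAACA was present in 1 of the 44 (2.27%), against 3.41% of all promoters. The 2 motifs share no overlapping match in these sequences, and a match does not show binding.

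Among arrays labelled GPR54 siRNA, metastin-10 was set against control peptide in the same way. None of the 52 genes was called by limma, also with the replicate block, and 0% of all genes were. At an unadjusted p under 0.05 there was 1 member (1.92%), against 1.81% of all genes. That member was DNAH9, which read 5.30, 5.30 and 5.74 with metastin-10, against 4.96, 5.24 and 5.19 with control peptide (0.32, 95% interval 0.02 to 0.61). The member median was 0.01, against -0.01 over all genes.

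For the 6 genes that fell under control siRNA, the intervals set a bound. DNAI7 read 5.81, 5.89 and 5.82 with metastin-10, against 6.07, 5.93 and 5.66 with control peptide, a difference of -0.05 (95% interval -0.30 to 0.21). CFAP96 read 7.65, 7.40 and 7.36, against 7.54, 7.32 and 7.44 (0.04, -0.20 to 0.27), and RSPH1 6.91, 6.78 and 6.63, against 6.94, 6.67 and 6.80 (-0.03, -0.24 to 0.18). The groups of these 3 genes overlapped. CFAP126 was at 0.15 (-0.05 to 0.34), DNALI1 at -0.03 (-0.25 to 0.19) and ODAD4 at -0.11 (-0.32 to 0.09). None of these 6 intervals reached the size of the same gene's fall under control siRNA. Those falls belong to genes picked by their call and have intervals of their own. The interaction below is the test of the difference. FOXJ1, which had not passed under control siRNA, was at -0.08 (-0.35 to 0.19).

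The difference between the 2 metastin-10 effects was tested by the interaction, the effect in the arrays labelled GPR54 siRNA minus that under control siRNA. No member passed in the limma fit, against 0.106% of all genes, of which 0.0101% were negative. At an unadjusted p under 0.05 there were 8 members (15.4%), all positive, against 6.28% of all genes in either direction and 3.5% positive. The interaction uses the control siRNA arrays of the first comparison again and is not a second observation. CFAP126 was nearest at 0.81 (95% interval 0.53 to 1.08, adjusted p = 0.0616), then CFAP96 at 0.94 (0.61 to 1.27, adjusted p = 0.0661), DNAI7 at 0.86 (0.50 to 1.23, adjusted p = 0.147) and RSPH1 at 0.65 (0.36 to 0.95, adjusted p = 0.185). DNALI1 was at 0.56, ODAD4 at 0.44 and FOXJ1 at 0.36, with adjusted p of 0.339, 0.52 and 0.852. CFAP126 and CFAP96 passed under 4 other settings, such as testing only probe sets at or above 4.5 (adjusted p = 0.0296 and 0.0404). Neither passed when any 1 array was left out, and with replicate 3 alone for control siRNA with metastin-10 their adjusted p were 0.631 and 0.721.

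**Figure D3:**
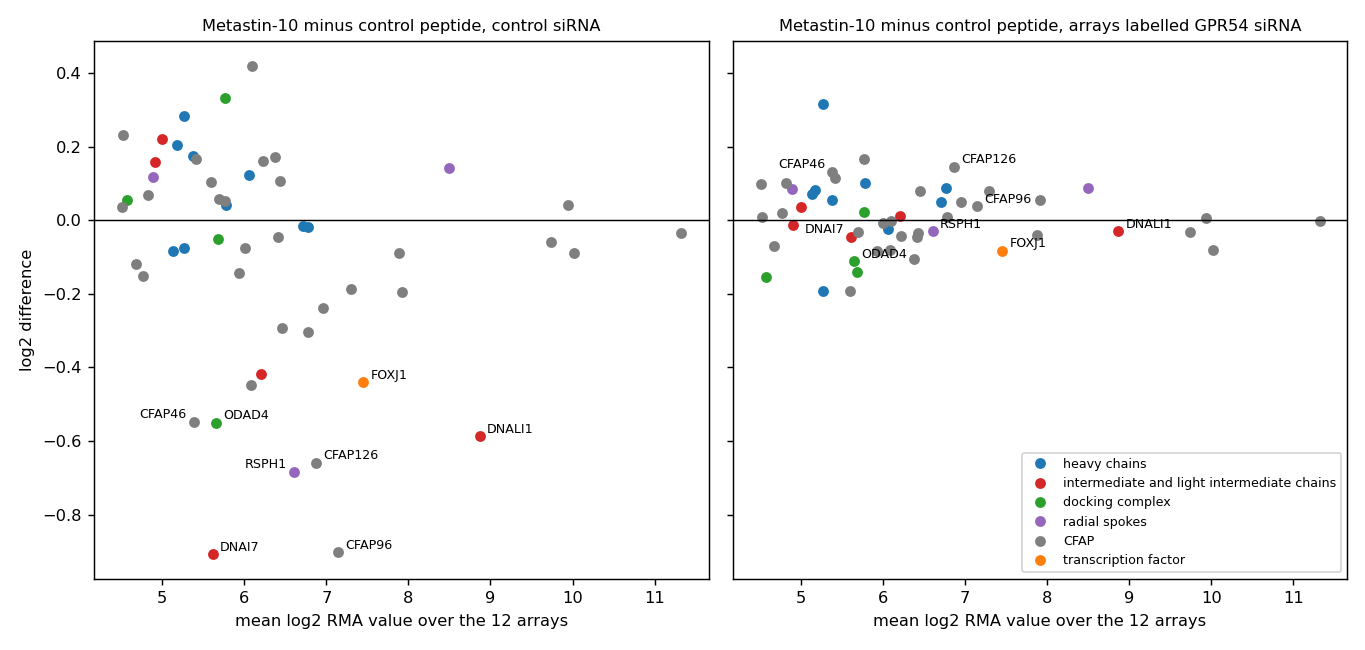
Log2 difference of metastin-10 minus control peptide (y axis) against the mean level over the 12 arrays (x axis) for the 52 genes, under control siRNA (left panel) and for arrays labelled GPR54 siRNA (right panel). The called genes and FOXJ1 are named. Their values run from -0.91 to -0.44 on the left and from -0.11 to 0.15 on the right.

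Between siRNA labels under metastin-10, the GPR54 siRNA label was higher than control siRNA for 7 of the 52 genes and lower for none. This comparison uses the same control siRNA, metastin-10 arrays as the first, so the values are given side by side with it and are not a second observation. CFAP96 was 2.12-fold higher, CFAP126 2.05-fold and DNAI7 1.91-fold. The 7 are 13.5% of the members, against 0.966% higher and 0.0708% lower over all genes and 1.26% higher over those at or above 4.5. The groups did not overlap, with the arrays labelled GPR54 siRNA higher, for 15 of 52 (28.8%), against 11.2% of all genes. The member median was 0.08, against 0.00 over all genes and 0.02 at or above 4.5.

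CFAP96 was at 7.47 ± 0.16 (SD, n = 3) in the arrays labelled GPR54 siRNA and 6.39 ± 0.10 with control siRNA, both with metastin-10 (log2 difference 1.08 ± 0.11 SE, adjusted p = 0.000564). CFAP126 was at 7.26 ± 0.09 in the arrays labelled GPR54 siRNA and 6.22 ± 0.07 with control siRNA (SD, n = 3, difference 1.04 ± 0.09 SE, adjusted p = 0.000193). DNAI7 was at 5.84 ± 0.04 in the arrays labelled GPR54 siRNA and 4.91 ± 0.21 with control siRNA (SD, n = 3, 0.94 ± 0.12 SE, adjusted p = 0.00297). RSPH1 (0.69), ODAD4 (0.61) and DNALI1 (0.59) were called as well, with adjusted p of 0.00558, 0.0103 and 0.0187, and all 6 had groups that did not overlap.

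CFAP46 was the 7th, at 5.84, 5.55 and 5.36 in the arrays labelled GPR54 siRNA and 4.83, 5.08 and 5.01 with control siRNA (0.61 ± 0.12, adjusted p = 0.047). Its dimmer probe sets were at -0.18 and 0.09, and its call was lost in 16 of 21 alternatives. FOXJ1 read 7.73, 7.75 and 7.35 in the arrays labelled GPR54 siRNA, against 7.08, 7.12 and 6.90 with control siRNA, with groups apart (0.58 ± 0.13, adjusted p = 0.0711). The count was 4 without replicate 1 or replicate 2 of control siRNA with metastin-10, 4 without replicate 1 of the arrays labelled GPR54 siRNA with metastin-10, 3 with only the 2 groups fitted, 7 without the replicate 3 arrays of all groups (FOXJ1 in place of CFAP46), and 0 with replicate 3 alone for control siRNA with metastin-10.

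With control peptide, the siRNA labels were compared directly. None of the 52 genes was called by limma, and 0% of all genes were. With the replicate block no member was called either, against 0.0101% of all genes. At an unadjusted p under 0.05 there was 1 member (1.92%), CFAP126 at 0.23 (95% interval 0.03 to 0.43), against 2.8% of all genes. The member median was 0.04 against 0.02 over all genes, and 41 of the 52 differences were above 0, as were 11755 of the 19775 over all genes.

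Beyond these genes, 8 lists of other cilia genes held 2 called genes for metastin-10 under control siRNA. Among 44 measured other axoneme components, EFHC2, a protein inside the doublet microtubules, fell (4.68, 4.90 and 5.09 with metastin-10, against 5.60, 5.56 and 5.82 with control peptide, -0.77 ± 0.11, adjusted p = 0.0117). That is 2.27% of the list, against 0.531% lower over all genes. The list median was -0.10 and 31 of its 44 genes (70.5%) were below 0, against 48.0% of all genes and 54.9% of those at or above 4.5. Of 18 ciliated epithelial cell markers, ZBBX fell (4.49, 4.82 and 4.96 with metastin-10, against 5.59, 5.57 and 5.40 with control peptide, -0.76 ± 0.13, adjusted p = 0.0259), which is 5.56% of that list, and the list median was -0.06. Both genes had groups that did not overlap. With replicate 3 alone for control siRNA with metastin-10 neither passed (EFHC2 -0.57, ZBBX -0.56), and without the replicate 3 arrays of all groups EFHC2 passed and ZBBX did not (adjusted p = 0.0513).

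No gene was called in that comparison among 14 multiciliated cell regulators (median 0.01), 18 dynein arm assembly factors (-0.03), 12 dynein light chains (-0.05), 9 cytoplasmic and intraflagellar dynein chains (-0.13), 26 intraflagellar transport genes (-0.11) or 28 BBSome and transition zone genes (-0.18). Of the regulators, RFX3, which cooperates with FOXJ1, had the smallest p. It read 7.32, 7.45 and 7.10 with metastin-10, against 7.90, 8.09 and 7.86 with control peptide, and missed the threshold with groups apart (-0.66 ± 0.15, adjusted p = 0.101), while RFX2 was at -0.37 (adjusted p = 0.326). With the replicate block RFX3 passed (adjusted p = 0.0207), as did SPEF2 (-0.39, adjusted p = 0.0382) of the other axoneme components and CIMAP3 (-0.40, adjusted p = 0.0363) of the ciliated cell markers. Of the BBSome and transition zone genes 23 of 28 (82.1%) were below 0, and of the intraflagellar transport genes 19 of 26 (73.1%), where IFT70A was at -0.39 (adjusted p = 0.207).

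No gene of these 8 lists was called for metastin-10 among arrays labelled GPR54 siRNA, and the list medians lay between -0.05 and 0.01. With metastin-10, those arrays were higher than control siRNA for EFHC2 (0.91), SPEF2 (0.47), a central pair protein, and ROPN1L (0.55), a radial spoke protein, among the other axoneme components, and for ZBBX (1.05) and CIMAP3 (0.71) among the ciliated cell markers. Their adjusted p were 0.00281, 0.0422, 0.0492, 0.00281 and 0.00517. These are 6.82% and 11.1% of their lists, against 0.966% higher over all genes. None of these 5 passed with replicate 3 alone for control siRNA with metastin-10, and SPEF2 and ROPN1L did not without the replicate 3 arrays of all groups. No gene of the other 6 cilia lists was called there, and again the control siRNA, metastin-10 arrays are shared.

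**Figure D4:**
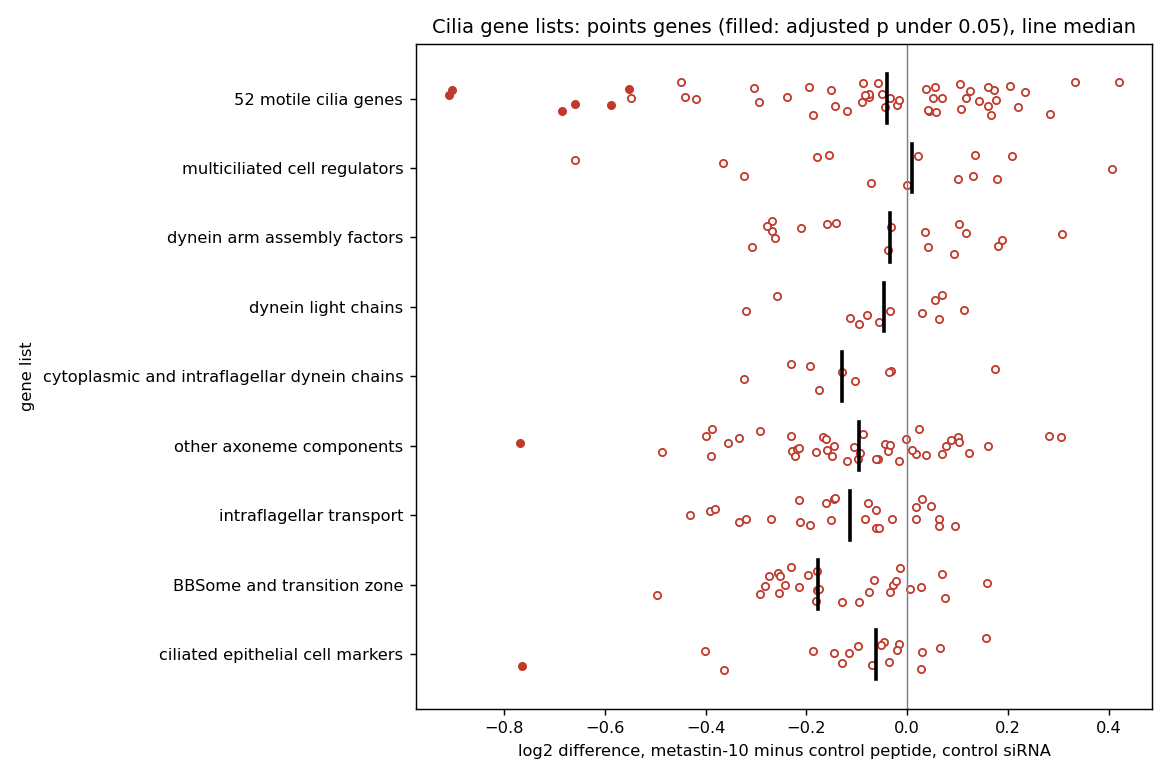
Log2 difference of metastin-10 minus control peptide under control siRNA (x axis) for the genes of each list (y axis), with the median as a line and called genes filled. The 52 motile cilia genes hold 6 called genes, the other axoneme components 1 and the ciliated cell markers 1, and list medians lie between -0.18 and 0.01.

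Markers of other endometrial cell types were read beside these results. Of the 8 secretory endometrial markers, SCGB2A1, a secretoglobin and the brightest of the list, fell with metastin-10 under control siRNA (-0.62, adjusted p = 0.00726). With the replicate block SCGB1D2 (-0.58, adjusted p = 0.0331) and MUC1 (-0.42, adjusted p = 0.0482) passed as well. In all 5 were below 0 and 3 above, with PAEP at 0.37 and SPP1 at 0.35, neither called. The summed level of the list was 11.75 to 11.91 (log2) with metastin-10, against 12.02 to 12.16 with control peptide. The keratin gene KRT19 fell as well (-0.48, adjusted p = 0.009), and the summed epithelial markers were 15.38 to 15.43, against 15.52 to 15.55. SCGB2A1 and KRT19 are 12.5% and 10% of their lists, against 0.531% lower over all genes. The secretory and epithelial list medians were -0.15 and -0.20, against -0.04 over the 52 axoneme genes. Of the 10 epithelial markers, 9 were below 0.

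For the ciliated cell markers the summed level, of which the tubulin gene TUBB4B is the largest share, was 13.73 to 13.77 with metastin-10 and 13.67 to 13.81 with control peptide, and overlapped. Their mean log2 level, in which each marker counts alike, did not overlap, at 6.001 to 6.05 with metastin-10 and 6.13 to 6.17 with control peptide. Among smooth muscle markers TAGLN, an actin-binding protein, rose (0.92, adjusted p = 0.00116). That is 16.7% of the 6 markers, against 0.0759% higher over all genes. The summed level was 10.76 to 10.82 with metastin-10, against 9.97 to 10.11 with control peptide. TAGLN was the brightest marker in that sum (mean level 9.90, list median 5.97). The median difference of the list was 0.17, with 5 markers above 0 and 1 below. No stromal fibroblast, endothelial or leukocyte marker was called. With replicate 3 alone for control siRNA with metastin-10, SCGB2A1, KRT19 and TAGLN did not pass, and without the replicate 3 arrays of all groups KRT19 did not.

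Between siRNA labels under metastin-10, SCGB2A1 (1.003), SCGB1D2 (0.88), MUC1 (0.57) and KRT19 (0.59) were higher for the GPR54 siRNA label and TAGLN was lower (-0.78). The secretory genes are 37.5% of their list and KRT19 is 10%, against 0.966% higher over all genes. TAGLN is 16.7% of the smooth muscle list, against 0.0708% lower over all genes. In the interaction SCGB2A1 (0.81, adjusted p = 0.043) and TAGLN (-0.98, adjusted p = 0.0241) were called. None of these was called with replicate 3 alone for control siRNA with metastin-10. Without the replicate 3 arrays of all groups, neither interaction call passed (adjusted p = 0.158 for SCGB2A1 and 0.13 for TAGLN). In that setting MUC1 did not pass between siRNA labels with metastin-10 (adjusted p = 0.0502). The part of the marker differences in the axoneme gene results was not tested, and fewer cells of a type cannot be told apart from less RNA per cell.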

How the data were processed

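Affymetrix U133 Plus 2.0 arrays of 12 Ishikawa cultures were used, in 4 groups of 3 taken from the labels. The authors deposited log2 values made with RMA (background correction, quantile normalization, median polish per probe set), per the submitters' processing notes. For the RMA software, a version is not given in the sources used here. No scanner files or detection calls were used, so the background is unknown, changes of dim probe sets may be compressed, and a shift of most genes would not be seen. Precision is limited by the number of arrays: member differences carried 95% intervals of about ± 0.24 (median, log2).

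Of 54675 probe sets, 62 controls were left out and 54613 tested without a filter. Of these, 41091 have 1 gene symbol in the platform annotation, 1801 several (not named) and 11721 none listed. The brightest probe set by its mean over the 12 arrays stands for a gene. Levels of different probe sets are not comparable. limma 3.58.1 in R 4.3.3 fitted 4 group means (8 residual degrees of freedom, empirical Bayes). The 5 contrasts were two-sided, with Benjamini-Hochberg adjustment over all probe sets and a threshold of 0.05. The fit was tested on simulated data (54613 probe sets, metastin-10 under control siRNA): it called 87% of the planted log2 changes of 1 and 20% of those of 0.5, with 5 wrong calls among 112. The same-numbered arrays deviated together (correlations of 0.17 to 0.44 and 0.26 to 0.52 for metastin-10 under either siRNA label, 0.11 to 0.54 for the labels with control peptide, but -0.15 to 0.26 with metastin-10), so the replicate block is given for the first 3. For the siRNA labels with metastin-10, only the count called with the block is given. For the interaction, the block is given for KISS1R and EFHC2. The labels do not say what a number marks.

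The members, the 14 gene lists (215 of 235 entries measured) and the tests were chosen with earlier results of these data known. Array values are given for members called in any contrast, FOXJ1, DNALI1, and the 4 highest and 4 lowest under control siRNA. Of each other list, called genes or at most 2 with the smallest p are named. DNAI4 (with its array values), the other members of the small classes, DNAH2, DNAH5, CFAP45 and the level markers and some list genes were named after their values were seen.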

Additional observations from a re-analysis of the deposited data

How the results depend on the processing

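Over 5 comparisons, no value of the 12 members with array values by rule, of 10 other members named or of 13 list genes named changed sign while called in any alternative run for them. Values not called were outside that check, and some changed sign. CFAP157 between siRNA labels with metastin-10 ran from -0.57 to 0.05. Of the alternatives' values, 1175, 1036 and 1236 kept their side of the threshold, 54, 0 and 97 lost it, and 19, 4 and 19 gained it. Most of these values, and all of the 10 other members, were not called in the first place and could not lose a call. The counts kept therefore do not measure how stable the calls were. For metastin-10 under control siRNA, the 6 members called were 7 with the replicate block and 2 to 7 leaving out each array in turn. For the siRNA labels with metastin-10, the 7 called were 3 with only the groups compared and 4 to 8 leaving out each array. With the replicate block they were 9, though same-numbered arrays correlated at only -0.15 to 0.26 in that comparison. The fits that left 2, 3 or, between the siRNA labels, 4 members also called a smaller share of all genes, as given above. With replicate 3 alone for control siRNA with metastin-10, chosen after the data were seen, both counts were 0. For the interaction, 0 became 2 (CFAP96 and CFAP126) with replicate 3 as a batch block, with only probe sets at or above 4.5, with a variance trend and with the mean of all probe sets of a gene, while leaving out each array gave 0. The replicate block brought FOXJ1 past the threshold, and changed no other call of a named member, in the comparisons where the numbers pair the arrays. Of the list genes named it brought RFX3, SPEF2, CIMAP3, SCGB1D2 and MUC1 past it there. In the interaction the block brought EFHC2 past it (0.91, adjusted p = 0.0229, against 0.0933 without the block).

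The interaction of KISS1R, 0.89 at an adjusted p of 0.04996, lost its call with replicates 1 and 2 only (0.985), with arrays centred on their medians (0.91) and with replicate 3 alone (0.94), and ranged from 0.81 to 0.97 leaving out each array, where 11 of the 12 fits lost the call. With replicate 3 alone KISS1R was at -0.931 for metastin-10 under control siRNA and at 1.08 between the siRNA labels with metastin-10, neither past the threshold. With the replicate block the interaction of KISS1R kept its call (adjusted p = 0.0228). The cause of the lost calls was not tested, other than the fewer arrays in such fits. Dim probe sets limit what can be seen: the background level is unknown, and 26 members averaged under 6.03.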
